A study of Mus musculus with 12 samples.

Results

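The NF-kB family consists of dimeric transcription factors and the proteins that hold or modulate them. The genes described here were 10 named members: the subunit genes Nfkb1, Nfkb2, Rel, Rela and Relb, the genes for the cytoplasmic inhibitors Nfkbia, Nfkbib and Nfkbie, and the genes for the nuclear inhibitor-like proteins Nfkbiz and Bcl3. They were found through the accession that each array probe carries, and 9 of the 10 were matched to a probe, with 10 probes in all. Nfkb1 was not analysed here. The matched members were 9 of 32301 genes and transcripts on the array, and all 9 were well above background on all 12 arrays. The member names were set by family and not by their measured values.

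In resting cells the NF-kB dimers are kept in the cytoplasm by inhibitors of the IkB type. Ligands of Toll-like receptors such as LPS activate the IkB kinase complex, the inhibitors are degraded, and the dimers enter the nucleus. Several subunit and inhibitor genes are themselves known NF-kB targets, so the pathway writes its own components and its own brakes. In macrophages NF-kB drives the inflammatory cytokine genes.

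Gene expression was measured in bone marrow-derived macrophages (BMDMs), which are bone marrow cells grown for 7 days with the growth factor M-CSF, from C57BL/6 mice aged 8 weeks. WT BMDMs came from wild-type mice and KpCKO BMDMs from Keap1 flox/flox mice that also carry LysM-Cre, a Cre recombinase driven from the lysozyme M locus in myeloid cells. Keap1 is the adaptor that marks the transcription factor Nrf2 for degradation, and its loss activates Nrf2. Cells were left untreated (Con), or received LPS and IFNg (M1) or IL-4 (M2) for 6 h, which gives 6 groups of 2 arrays each. There were 2 independent cultures, each with 1 mouse per genotype whose cells went through all the stimuli; culture 1 came from male and culture 2 from female mice, so culture and sex cannot be told apart. The comparisons ask how the stimuli move these genes in each genotype, and whether Keap1 loss alters their levels within a stimulus.

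A level below is log2 of the processed Cy3 signal minus the 75th percentile of its own array, so that 0 is the 75th percentile and 1 unit is a 2-fold step; probes of different genes cannot be ranked against each other on it. The 75th percentile lay at 547.7 to 757.1 signal units in WT M1, at 786.6 to 906 in KpCKO M1, and at 965.7 to 1166 elsewhere. A slide carried all 4 arrays of its stimulus, so stimulus and slide cannot be told apart, whereas the genotypes were compared within a slide. Keap1 was lower in KpCKO in all stimuli, by -1.46 in Con, -1.71 in M1 and -1.81 in M2, and the Nrf2 target Nqo1 was higher by 3.23, 3.50 and 3.52; where the Keap1 probe lies relative to the deleted exons was not examined. Among marker genes, all 6 macrophage genes measured were well above background in every group. Their summed level was 716 to 983 times the 75th percentile in WT M1 against 503 to 602 in KpCKO M1. It was 453 to 513 in WT Con against 344 to 398 in KpCKO Con, and in M2 the genotypes overlapped. Under M1, Csf1r overlapped between the genotypes (6.80 to 6.83 in WT, 6.75 to 7.09 in KpCKO). Cd14 (7.39 to 7.89 against 5.99 to 6.63), Fcgr1, Adgre1, Itgam and Mertk were lower in KpCKO. The summed T cell level rose from between 0.146 and 0.165 in WT Con to between 2.45 and 3.24 in WT M1, where Lck was the member that moved (-6.81 to -5.60 against 1.24 to 1.57), while Cd3e and Cd3g were not well above background on both WT M1 arrays. B cell and dendritic cell genes summed to at most 0.973 and 1.79, neutrophil genes to between 3.15 and 16.5 and fibroblast genes to between 22 and 52.3; their part in the results was not tested. In such bulk samples fewer expressing cells and less mRNA per cell cannot be told apart.

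Many NF-kB target genes carry a kappaB element near the start of transcription. The 250 bases before the annotated start were at hand for 7 members (RefSeq, build GRCm38.p6), and the kappaB consensus, searched on both strands, occurred in 4 of them, Nfkb2, Rel, Nfkbia and Nfkbie, and in 3.9% of all 32851 promoters of that length. The annotation gives Nfkb2 3 starts, and a match was found before each. The member counts here are of genes, with a match before any start, whereas the shares are of single promoters. These 4 promoters are shown because they carry the match, which stands in capitals; overlapping matches on both strands form a single stretch. They lie at chr19:46304487-46304736 (plus strand, the first of its starts), chr11:23770970-23771219 (minus strand), chr12:55492648-55492897 (minus strand) and chr17:45555450-45555699 (plus strand).
Nfkb2: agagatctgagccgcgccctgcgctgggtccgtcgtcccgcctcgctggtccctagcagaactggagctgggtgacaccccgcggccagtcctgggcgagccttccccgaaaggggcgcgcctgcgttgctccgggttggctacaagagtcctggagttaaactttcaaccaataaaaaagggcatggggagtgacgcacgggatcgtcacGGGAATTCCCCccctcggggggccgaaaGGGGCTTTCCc
Rel: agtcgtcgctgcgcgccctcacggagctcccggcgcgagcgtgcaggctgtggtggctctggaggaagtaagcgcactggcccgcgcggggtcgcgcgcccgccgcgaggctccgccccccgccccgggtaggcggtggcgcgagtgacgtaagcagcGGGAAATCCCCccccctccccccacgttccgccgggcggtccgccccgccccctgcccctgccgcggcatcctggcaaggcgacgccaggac
Nfkbia: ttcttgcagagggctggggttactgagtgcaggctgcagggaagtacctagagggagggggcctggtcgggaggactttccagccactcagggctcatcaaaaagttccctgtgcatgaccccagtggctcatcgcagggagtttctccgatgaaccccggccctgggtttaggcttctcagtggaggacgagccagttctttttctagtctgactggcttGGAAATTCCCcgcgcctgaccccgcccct
Nfkbie: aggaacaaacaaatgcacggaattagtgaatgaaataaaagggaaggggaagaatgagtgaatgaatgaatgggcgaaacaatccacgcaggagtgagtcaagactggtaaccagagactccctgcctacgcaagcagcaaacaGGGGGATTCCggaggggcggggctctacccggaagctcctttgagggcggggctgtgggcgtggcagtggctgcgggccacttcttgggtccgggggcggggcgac
In Nfkb2 the stretches began 39 and 11 bases before the start, in Rel 92, in Nfkbia 29 and in Nfkbie 106 bases before it. The antioxidant response element core that Nrf2 binds, spelled TGAGNNNGC or TGACNNNGC and also searched on both strands, occurred in Rel, 238 bases before the start, and in Nfkbia, 13 bases before it, and in 23% of all promoters. These letters were not in the windows of Rela, Nfkbib and Bcl3. A match is a description of the letters and not evidence of a bound factor.

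**Figure D1:**
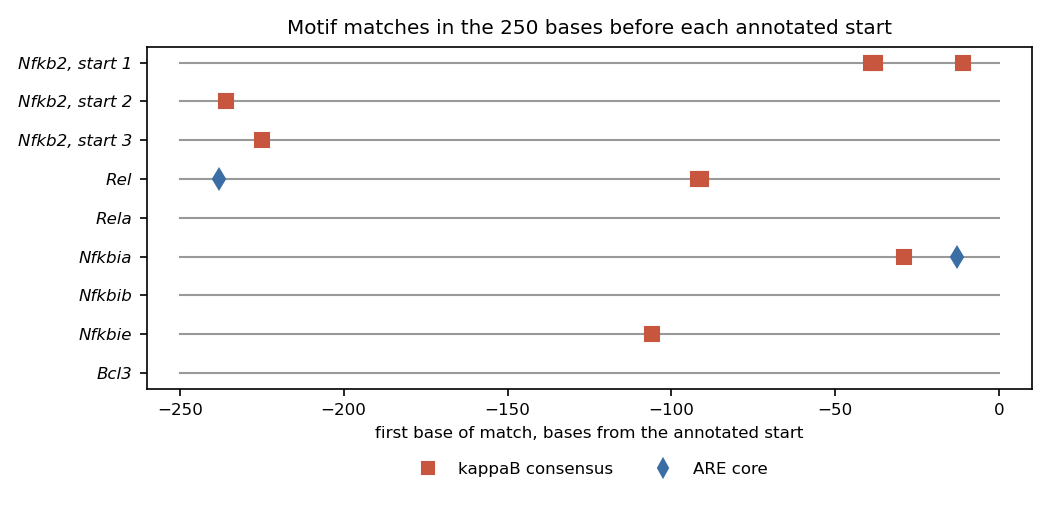
Positions of kappaB consensus matches (red squares) and antioxidant response element core matches (blue diamonds) in the 250 bases before each annotated start, with the distance to the start in bases on the horizontal axis and 1 line for each start. Nfkb2, Rel, Nfkbia and Nfkbie carry kappaB matches, and Rela, Nfkbib and Bcl3 carry neither motif in this window.

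M1 stimulation raised every member measured, in WT and in KpCKO BMDMs. By limma with adjustment over all genes, 9 of 9 members rose on M1 in WT, where 34.5% of all genes tested were called higher, and 9 of 9 were higher in KpCKO, where 24.8% were. The median difference of the members was 2.73 in WT and 2.83 in KpCKO, against 0.126 and 0.029 over all genes tested. In no member did the M1 arrays of a genotype overlap with its Con arrays. The share of all genes without such overlap was not computed, so this does not set the members apart. More than 2-fold higher in both cultures were 7 of 9 members in WT (15.2% of all genes) and 8 of 9 in KpCKO (10.2%).

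Among the subunits with a transactivation domain, Rela, which encodes p65, had the smallest M1 estimate. Rela in WT had a level of 3.65 and 3.63 untreated, 5.19 and 5.02 on M1 and 3.39 and 3.50 on M2, and in KpCKO a level of 3.58 and 3.52 untreated, 5.23 and 4.79 on M1 and 3.38 and 3.25 on M2. The 4 M1 arrays stood above the other 8, and the genotypes overlapped within M1. Rela rose by 1.46 ± 0.138 (SE; 2.75-fold, adjusted p = 0.000126 by limma) in WT and by 1.46 ± 0.138 (adjusted p = 0.000212) in KpCKO. The other Rela probe gave 1.60 and 1.56. Under quantile normalization the brightest probe gave 0.82 in WT (adjusted p = 0.00141 by limma) and 1.02 in KpCKO.

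Rel encodes c-Rel, a subunit prominent in lymphoid and myeloid cells. Rel in WT had a level of -4.71 and -4.94 untreated, -1.32 and -0.84 on M1 and -3.89 and -3.65 on M2, and in KpCKO a level of -5.23 and -5.22 untreated, -3.21 and -2.32 on M1 and -4.43 and -4.26 on M2. No groups overlapped, and in each stimulus both KpCKO arrays were below both WT arrays. Rel rose by 3.75 ± 0.246 (13.4-fold, adjusted p = 2.98e-05 by limma) on M1 in WT and by 2.46 ± 0.246 (5.51-fold, adjusted p = 0.00027) in KpCKO. Its probe was dim, with 26.8 to 306 signal units over the arrays, and with normexp background correction the response was 2.62 in WT (adjusted p = 0.000152 by limma) and 1.41 in KpCKO (adjusted p = 0.00407).

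Relb pairs mainly with the p52 product of Nfkb2 in the non-canonical pathway. Relb in WT had a level of 2.41 and 3.15 untreated, 5.45 and 5.49 on M1 and 2.33 and 3.46 on M2, and in KpCKO a level of 1.97 and 2.84 untreated, 5.20 and 5.27 on M1 and 2.16 and 2.79 on M2. The M1 arrays were close together, while culture 2 was above culture 1 in 6 of 6 groups. Relb rose by 2.69 ± 0.277 (6.46-fold, adjusted p = 0.000184 by limma) in WT and by 2.83 ± 0.277 (7.10-fold, adjusted p = 0.000246) in KpCKO.

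Nfkb2 encodes p100, the precursor of p52, which in its unprocessed form also retains dimers in the cytoplasm. Nfkb2 in WT had a level of 1.82 and 2.37 untreated, 5.41 and 5.79 on M1 and 1.73 and 2.61 on M2, and in KpCKO a level of 1.5 and 2.15 untreated, 4.86 and 5.04 on M1 and 1.65 and 2.07 on M2. The KpCKO M1 arrays lay below the WT M1 arrays, and the genotypes overlapped in Con and in M2. Nfkb2 rose by 3.51 ± 0.166 (11.4-fold, adjusted p = 9.39e-06 by limma) in WT and by 3.13 ± 0.166 (8.75-fold, adjusted p = 2.45e-05) in KpCKO.

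Of the cytoplasmic inhibitors, Nfkbia encodes IkBa, which is degraded and resynthesized quickly on NF-kB activation. Nfkbia in WT had a level of 5.03 and 5.39 untreated, 7.78 and 8.09 on M1 and 4.82 and 5.70 on M2, and in KpCKO a level of 4.46 and 5.03 untreated, 7.46 and 7.70 on M1 and 4.23 and 4.84 on M2. Culture 2 was higher in 6 of 6 groups, and KpCKO was below WT in each culture under each stimulus. Nfkbia rose by 2.73 ± 0.165 (6.63-fold, adjusted p = 2.18e-05 by limma) on M1 in WT and by 2.84 ± 0.165 (7.14-fold, adjusted p = 3.38e-05) in KpCKO.

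Nfkbib encodes IkBb, a slower-acting inhibitor. Nfkbib in WT had a level of 1.98 and 2.11 untreated, 5.25 and 5.41 on M1 and 1.94 and 2.24 on M2, and in KpCKO a level of 1.95 and 2.11 untreated, 4.85 and 4.74 on M1 and 2.02 and 2.08 on M2. The 8 arrays outside M1 were within 0.30 of each other, and under M1 the genotypes did not overlap. Nfkbib rose by 3.28 ± 0.116 (9.73-fold, adjusted p = 4.61e-06 by limma) in WT and by 2.76 ± 0.116 (6.79-fold, adjusted p = 1.2e-05) in KpCKO.

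Nfkbie, which encodes IkBe, had the largest M1 response of the 9 members. Nfkbie in WT had a level of 1.74 and 2.45 untreated, 6.77 and 7.12 on M1 and 1.48 and 3.26 on M2, and in KpCKO a level of 1.17 and 2.03 untreated, 6.51 and 6.38 on M1 and 1.25 and 2.45 on M2. The M2 arrays of the WT cultures were farther apart than those of any other group of this gene. Nfkbie rose by 4.85 ± 0.408 (28.8-fold, adjusted p = 7.72e-05 by limma) in WT and by 4.84 ± 0.408 (28.7-fold, adjusted p = 0.000133) in KpCKO.

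Nfkbiz encodes IkBz, a nuclear protein needed for the secondary induction of cytokine genes such as Il6. Nfkbiz in WT had a level of 0.08 and 0.88 untreated, 4.24 and 1.81 on M1 and -2.19 and -1.07 on M2, and in KpCKO a level of -1.40 and -0.65 untreated, 2.60 and 3.06 on M1 and -2.51 and -2.55 on M2. The WT M1 arrays differed by 2.44 between the cultures, so that the M1 response in WT was 4.17 in culture 1 and 0.93 in culture 2. Nfkbiz rose by 2.55 ± 0.79 (5.84-fold, adjusted p = 0.0261 by limma) in WT and by 3.85 ± 0.79 (14.5-fold, adjusted p = 0.00609) in KpCKO. With culture 1 left out of WT M1 the response was 1.02, and with culture 2 left out it was 4.07; without either WT Con array the call was lost, at 2.13 (adjusted p = 0.132 by limma) and 2.96 (adjusted p = 0.0586). It was also lost with normexp background correction (adjusted p = 0.0738 by limma) and with the WT Con and M1 arrays fitted alone (adjusted p = 0.112).

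Bcl3 encodes a nuclear protein that binds p50 and p52 dimers on DNA. Bcl3 in WT had a level of 2.90 and 3.31 untreated, 4.24 and 4.06 on M1 and 2.21 and 3.37 on M2, and in KpCKO a level of 2.63 and 3.06 untreated, 4.60 and 3.98 on M1 and 2.14 and 2.79 on M2. The WT Con and KpCKO Con arrays overlapped, as did the genotypes under M1 and M2. Bcl3 rose by 1.05 ± 0.386 (2.06-fold, adjusted p = 0.0487 by limma) in WT, and by 1.45 ± 0.386 (2.73-fold, adjusted p = 0.0184) in KpCKO. The WT call was lost whichever of the 4 arrays compared was left out, with values of 0.75 to 1.34 (adjusted p of 0.0608 to 0.223 by limma), and the KpCKO call without the M1 array of culture 1 (0.89), the Con array of culture 1 (1.37) or that of culture 2 (1.52). Under quantile normalization, which moved the median of all genes in this WT comparison from 0.126 to -0.079, the WT difference of Bcl3 was 0.55 (adjusted p = 0.244 by limma), and 8 of the 9 members were still called higher. That scaling also lowered the WT responses of Nfkb2 to 2.91, Relb to 2.08, Nfkbia to 1.90 and Nfkbie to 4.18.

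**Figure D2:**
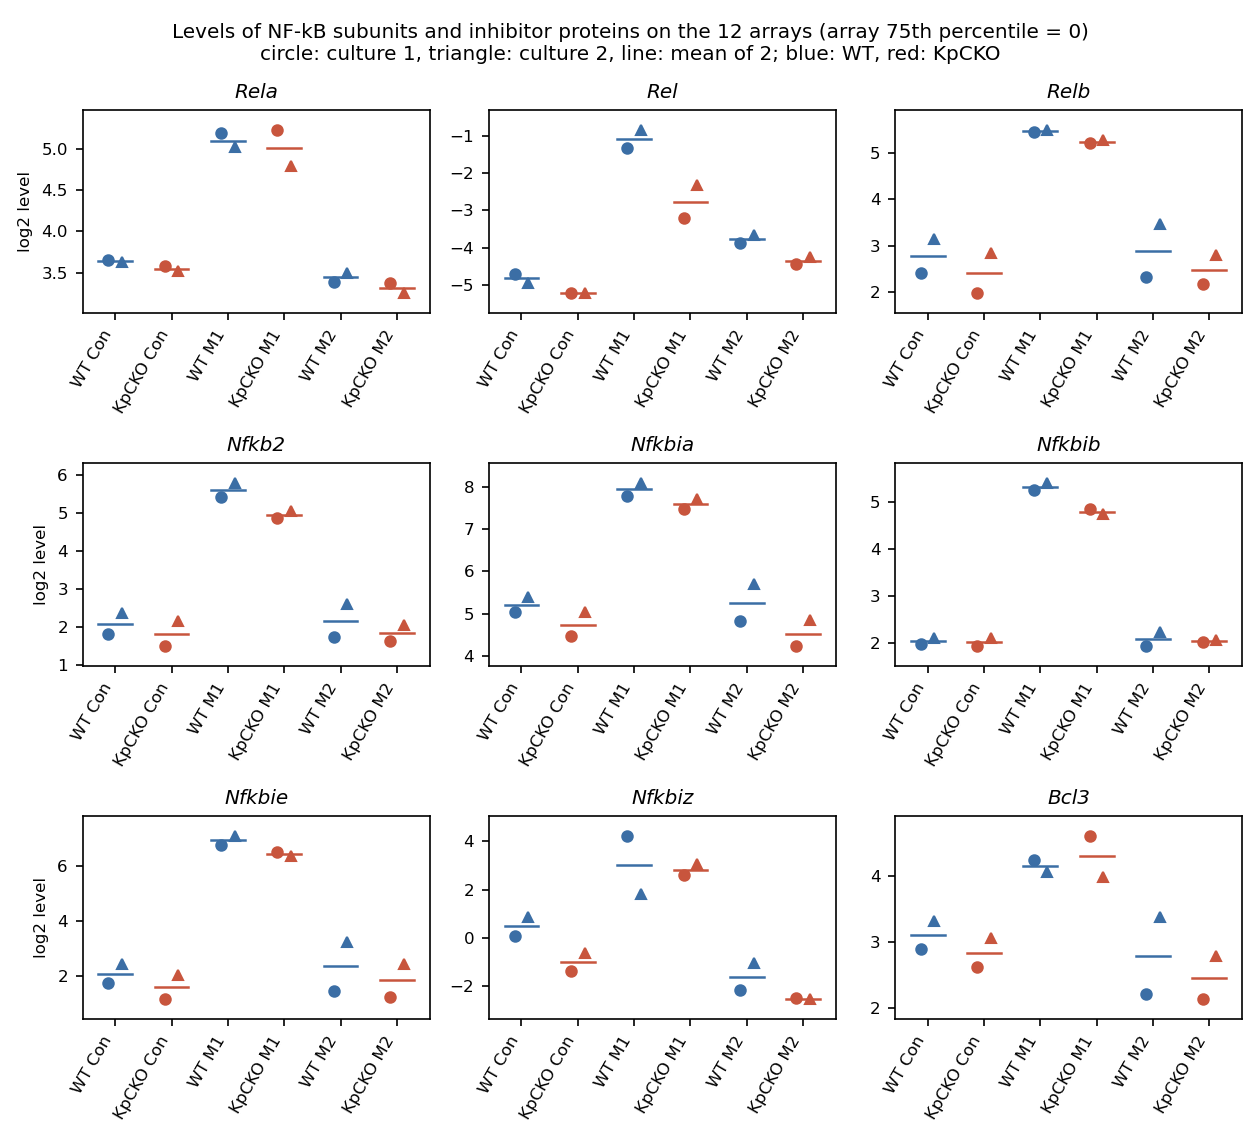
log2 level of each of the 9 members on the 12 arrays, with 0 at the array's 75th percentile, groups on the horizontal axis and a separate vertical scale for each gene; circles are culture 1, triangles culture 2 and lines the mean of 2 arrays. The M1 arrays stand highest in every panel, and in the Rel panel the KpCKO M1 arrays (-3.21 and -2.32) lie below the WT M1 arrays (-1.32 and -0.84).

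The M1 response itself was then compared between the genotypes. No member passed the test of the difference between the KpCKO and the WT response, and of all genes 0.0716% did. At an unadjusted p under 0.05, 2 of 9 members were found, Rel and Nfkbib, as were 3662 of all 22354 genes tested. For Rel the response was smaller in KpCKO by -1.29 ± 0.349 (95% interval -2.11 to -0.459, adjusted p = 0.181 by limma), with -1.37 in culture 1 and -1.20 in culture 2. For Nfkbib it was smaller by -0.52 ± 0.164 (-0.907 to -0.131, adjusted p = 0.221 by limma), with -0.37 and -0.67. Nfkb2 differed by -0.38 (-0.934 to 0.178) and Nfkbia by 0.11 (-0.446 to 0.659). The intervals of Relb (-0.792 to 1.06), Nfkbie (-1.37 to 1.36), Bcl3 (-0.894 to 1.70) and Nfkbiz (-1.34 to 3.96) were wide enough to hold a 1.5-fold change in either direction, and that of Rela ran from -0.461 to 0.466. These tests share the Con arrays of their genotype with the M2 comparisons.

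**Figure D3:**
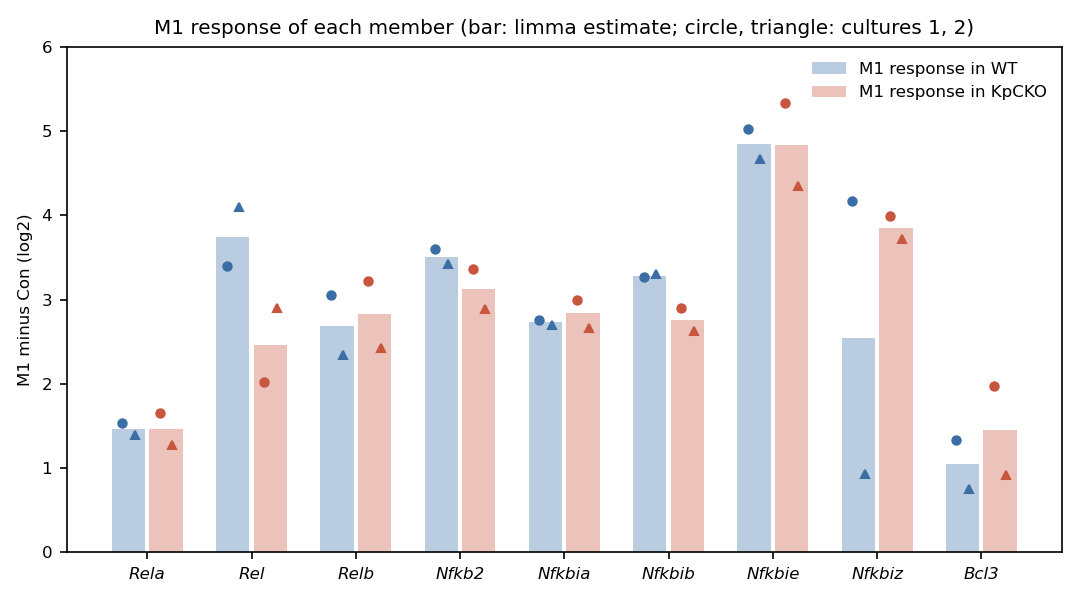
M1 response of each member, as the log2 difference between M1 and Con on the vertical axis, in WT (blue) and KpCKO (red); bars are the limma estimates, circles culture 1 and triangles culture 2. Rel shows 3.75 in WT and 2.46 in KpCKO, Nfkbie shows 4.85 and 4.84, and the WT cultures of Nfkbiz lie at 4.17 and 0.93.

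Set against WT M1 BMDMs, KpCKO M1 BMDMs had less mRNA of Rel, Nfkb2 and Nfkbib. These 3 of 9 members were called lower by limma and none higher, where 8.58% of all genes were called lower. Both KpCKO arrays were below both WT arrays in 6 of 9 members (30.3% of all genes), which were Nfkb2, Rel, Relb, Nfkbia, Nfkbib and Nfkbie, and these same 6 were lower in both cultures (42.8% of all genes). The median difference was -0.356 over the members and -0.087 over all genes tested. Over all genes 1919 were called lower and 1660 higher, and under quantile normalization 1352 and 2030.

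Rel was lower by -1.69 ± 0.246 (3.22-fold lower, 95% interval -2.27 to -1.10, adjusted p = 0.00885 by limma), with -1.89 in culture 1 and -1.48 in culture 2. It was the only member more than 2-fold lower in both cultures, as were 2.42% of all genes. Nfkb2 was lower by -0.65 ± 0.166 (1.57-fold lower, adjusted p = 0.0428 by limma), with -0.55 and -0.75. Nfkbib was lower by -0.54 ± 0.116 (1.45-fold lower, adjusted p = 0.0272 by limma), with -0.40 and -0.67.

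The remaining inhibitors gave -0.36 for Nfkbia (adjusted p = 0.177 by limma), -0.50 for Nfkbie (0.421 likewise adjusted) and -0.20 for Nfkbiz, where the cultures pointed in opposite directions with -1.65 and 1.26. Relb gave -0.24, Rela -0.09 with an interval of -0.420 to 0.236, and Bcl3 0.14. In this fit, which treats the arrays of a mouse as independent, the Rela interval excludes a 1.5-fold difference between the genotypes. The Rel call was lost without the WT M1 array of culture 2, at -1.55 (adjusted p = 0.0544 by limma). Under quantile normalization Rel was lower by -1.68 (adjusted p = 0.00732 by limma), while Nfkb2 was at -0.38 (adjusted p = 0.185 by limma) and Nfkbib at -0.29 (adjusted p = 0.12), so that the latter 2 calls depended on the scaling; the lower 75th percentiles of the WT M1 arrays moved with these differences, and their part was not tested. Nfkb2 was not called whichever of the 4 M1 arrays was left out (-0.85 to -0.45), and Nfkbib was called only without the KpCKO array of culture 1 (-0.68), with -0.56 to -0.40 otherwise. Without the culture term Nfkb2 (adjusted p = 0.307 by limma) and Nfkbib (adjusted p = 0.0757) were not called. With the 4 M1 arrays fitted alone none of the 3 was, Rel included (adjusted p = 0.159 by limma). That fit called no gene at all.

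Without M1 stimulation no member was called between the genotypes, and fewer of all genes were called there than under M1. The adjusted threshold moves with that share, so the calls do not show a difference particular to M1. In Con 9 of 9 members were lower in KpCKO in both cultures, as were 32.2% of all genes, yet limma called none of them and 2.22% of all genes. At an unadjusted p under 0.05 only Nfkbia was found there, as were 3153 of all 22367 genes tested. Nfkbia gave -0.46 ± 0.165 (adjusted p = 0.265 by limma). Nfkbiz had the largest difference, -1.5 ± 0.79 (interval -3.38 to 0.367), with -1.48 in culture 1 and -1.53 in culture 2, and its arrays did not overlap between the genotypes. Rel gave -0.40 and Nfkbib -0.02. The methods' unpaired test called no member in Con or in M2, with or without adjustment, and with adjustment it called no gene at all there.

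In M2 BMDMs 8 of 9 members were lower in KpCKO in both cultures (31.4% of all genes), Nfkbib being the exception. None was called by limma, which called 1.93% of all genes. At an unadjusted p under 0.05 only Nfkbia was found, as were 3193 of all 22365 genes tested. Nfkbia gave -0.73 ± 0.165 (1.66-fold lower, interval -1.12 to -0.336, adjusted p = 0.0987 by limma), with -0.59 and -0.86, and Rel gave -0.58 ± 0.246. The median of the members was -0.374 in Con, -0.356 in M1 and -0.418 in M2, against 0.002, -0.087 and 0.019 over all genes. Nfkb2 was called under M1 at -0.65 ± 0.166, while Nfkbia was not called in M2 at -0.73 ± 0.165. The 9 members came from the same 4 mice, and they are not replicates of the genotype.

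**Figure D4:**
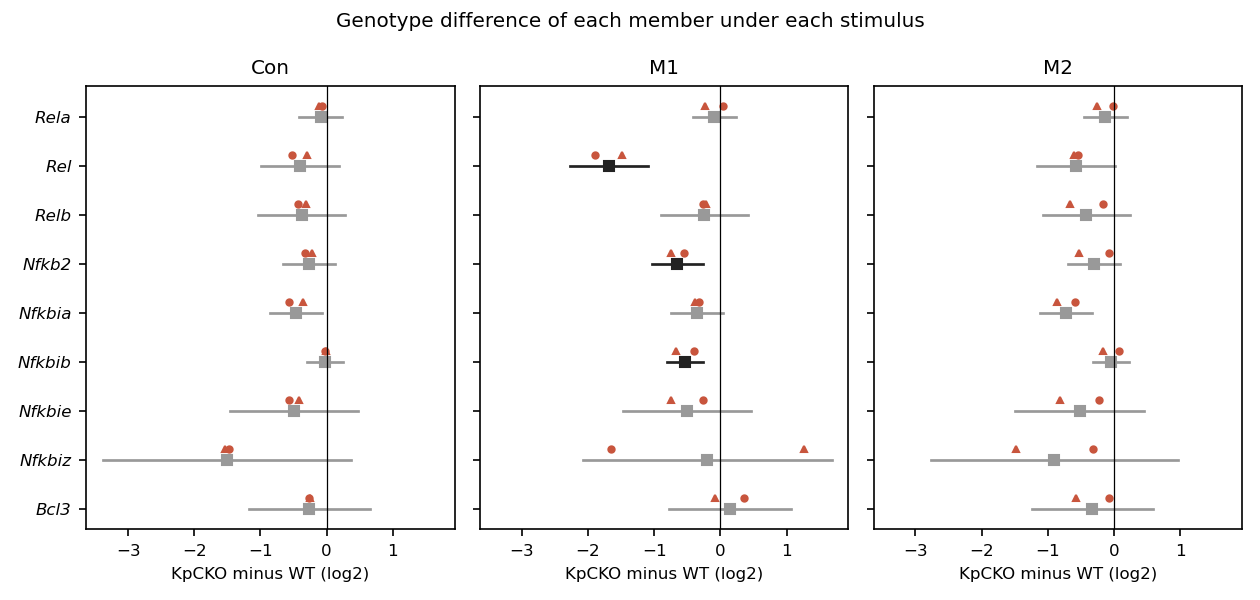
KpCKO minus WT difference of each member (log2, horizontal axis) in Con, M1 and M2; squares are limma estimates with 95% intervals, black where the adjusted p is under 0.05 and grey otherwise, and the small red circles and triangles are cultures 1 and 2. Rel at -1.69, Nfkb2 at -0.65 and Nfkbib at -0.54 under M1 are the black ones.

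On IL-4 few members were called, and with 9 members the counts were near the share over all genes. In WT BMDMs 1 of 9 members, Rel, was called between M2 and Con, where 16.8% of all genes were, and in KpCKO none was, where 10.2% were. Rel rose by 1.06 ± 0.246 (2.08-fold, adjusted p = 0.0306 by limma) in WT, with 0.83 and 1.28 in the cultures, a call that was lost whichever of the 4 arrays compared was left out (0.77 to 1.34, adjusted p of 0.0582 to 0.183). In KpCKO the Rel difference was 0.88 ± 0.246 (adjusted p = 0.07 by limma), with 0.80 and 0.96. Rel was the only member with an unadjusted p under 0.05 there, as had 6062 of all 22366 genes tested. Nfkbiz was lower on the M2 than on the Con arrays in both genotypes with no overlap, by -2.11 ± 0.79 in WT (adjusted p = 0.116 by limma) and by -1.51 ± 0.79 in KpCKO (adjusted p = 0.275). The other members lay between -0.38 and 0.27 in both genotypes. The M2 response did not differ between the genotypes past the threshold in any member, where 0.00894% of all genes passed. No member had an unadjusted p under 0.05 there either, while 451 of all 22365 genes tested had.

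Across the 12 arrays the members varied together. Pearson's r over the 36 pairs of members ran from 0.698 (Rel and Nfkbiz) to 0.996 (Relb and Nfkbie), with a median of 0.922. The arrays share slides, cultures and mice, so that these are descriptions. Each member stood highest on the M1 arrays, so high r over all arrays was largely given beforehand. Correlation within a stimulus was not computed. Among the 17176 genes well above background on all arrays, the genes of highest r with each member were then read. Nfkb2 was closest to Traf1 and Ube2f (0.997 each), Relb to Nfkbie (0.996) and Birc3 (0.994), Nfkbie to Relb (0.996) and Nfkb2 (0.995), and Nfkbia to Birc3 (0.995). Nfkbib was closest, among named genes, to Cflar (0.998), Rela to Cd82 (0.992) and Rel to Ido2 (0.991). Nfkbiz was closest to Mbip (0.974) and Snx20 (0.971), and Bcl3 to Spata13 (0.966) and Traf3 (0.959). The remaining partners were transcripts for which no symbol was matched.

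The other genes of the pathway were read from 3 lists. Of the receptors' adaptors and kinases upstream of NF-kB, 29 of 30 had a probe, and in WT 19 (65.5%) were higher on M1, 6 (20.7%) lower and 4 not called, where 34.5% of all genes were higher and 28.7% lower. Traf1, an adaptor of TNF receptors, rose by 7.05 ± 0.257 (adjusted p = 5.01e-06 by limma), the kinase Ripk2 by 3.66 and the ubiquitin ligase Birc3 by 3.43. Tab1 (-1.22), Btrc (-0.83), the receptor of phosphorylated IkB in its ubiquitin ligase, and the kinase Irak4 (-0.67) fell. The list's median was 0.606, against 2.73 for the subunits and inhibitors.

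Under M1 the same list had 7 genes (24.1%) lower and 2 (6.90%) higher in KpCKO than in WT, with a median of -0.356, where 8.58% of all genes were lower and 7.43% higher. Traf1 was lower by -1.01 ± 0.257 (adjusted p = 0.0425 by limma), Ripk2 by -0.97 ± 0.143 (adjusted p = 0.00912) and the Toll-like receptor adaptor Myd88 by -0.74 ± 0.12 (adjusted p = 0.0121). Traf5 was higher by 1.62 ± 0.225 (adjusted p = 0.00761 by limma), and Ikbkg, the regulatory subunit of the IkB kinase complex, by 0.88 ± 0.178 (adjusted p = 0.0235). Under quantile normalization 4 were lower and 4 higher.

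Of 16 brakes on the pathway other than the members, 10 (62.5%) were higher on M1 in WT, 3 (18.8%) lower and 3 not called, against the same 34.5% and 28.7% of all genes. Tnfaip3, the ubiquitin-editing enzyme A20, rose by 5.19 ± 0.302 (adjusted p = 1.88e-05 by limma), Tnip3 by 4.25 and Tank by 2.77. Pdlim2 (-2.40), Otulin (-1.08) and Otud7b (-0.47) fell. Between the genotypes under M1, 4 brakes (25.0%, against 8.58% of all genes) were lower in KpCKO and none higher, with Tank at -0.78 ± 0.115 (adjusted p = 0.00934 by limma), Nkiras2 at -0.71 and the RNase gene Zc3h12a at -0.65. Nfkbid, the remaining gene of the nuclear IkB type, rose by 0.87 ± 0.175 on M1 in WT and differed by -0.11 (interval -0.528 to 0.301) between the genotypes under M1.

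Of 25 target genes of NF-kB, 24 were tested, and all 24 were higher on M1 in WT, as were 34.5% of all genes, with a median of 5.85. Il6 rose by 13.2 ± 0.488 (adjusted p = 5.19e-06 by limma), the receptor gene Cd40 by 9.98 and the chemokine gene Cxcl10 by 9.28. Under M1, 10 of the 24 (41.7%, against 8.58% of all genes) were lower in KpCKO and none higher. The median was -0.773, against -0.356 for the subunits and inhibitors, and under quantile normalization -0.515 against -0.137. In Con 3 of the 24 (12.5%, against 0.827% of all genes) were lower in KpCKO, with a median of -0.459. In M2 2 (8.33%, against 0.644%) were lower, with a median of -0.633, and none was higher in either. None of the 24 passed the test of the difference of the M1 response, where 0.0716% of all genes did. The list holds Il6, Il1a, Il1b and Nos2, which the study had reported as inhibited in KpCKO from these same arrays. The share and the median are therefore partly set by the choice of list. Il6 was lower by -3.21 ± 0.488 (adjusted p = 0.0101 by limma) and Il1a by -3.15 ± 0.255 (adjusted p = 0.00121). Csf3 was well above background only on both WT M1 arrays and on 1 of the KpCKO M1 arrays. It passed the filter only through WT M1, so its calls, counted among the 24 and the 10, were favoured by the filter. Averaged over the cultures, its signal under M1 was at least 8.54-fold lower in KpCKO. Set beside these, Rel was lower by -1.69 and Rela by -0.09.

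**Figure D5:**
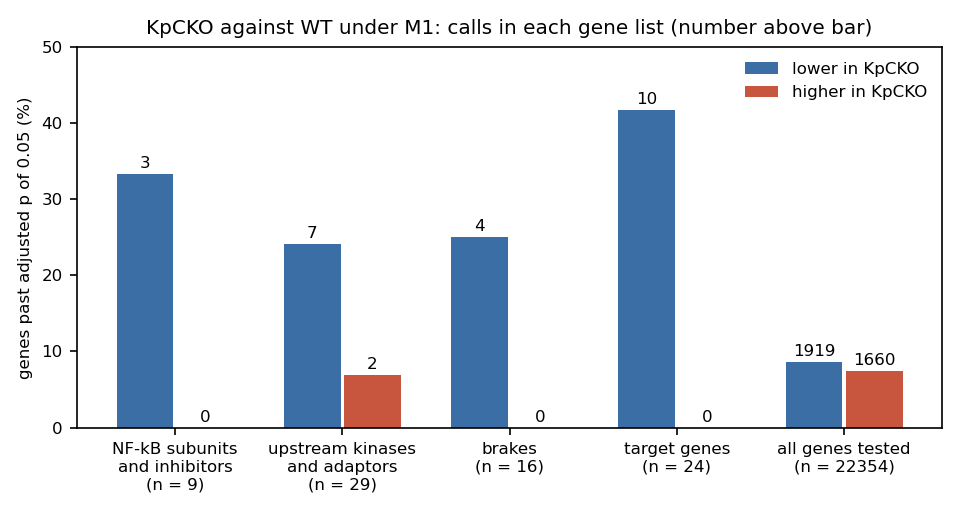
Share of each gene list called lower (blue) or higher (red) in KpCKO than in WT under M1 by limma at an adjusted p under 0.05, in percent on the vertical axis, with the number of genes above each bar. The subunits and inhibitors had 3 lower of 9, the upstream genes 7 lower and 2 higher of 29, the brakes 4 lower of 16, the target genes 10 lower of 24 and all genes 1919 lower and 1660 higher of 22354.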

How the data were processed

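Total RNA of the 12 BMDM samples was labelled with Cy3 and hybridised to 1-colour Agilent mouse arrays. The deposited intensity values are processed signals that the authors obtained with Agilent Feature Extraction 10.7.3.1, which subtracts background; the authors also deposited log2 values from GeneSpring, which were used as an alternative only. Control spots (0 saturated spots were found) and outlier spots were left out. Here log2 intensity minus the array's 75th percentile was computed. Of 41174 probes, 26695 were matched by accession to 18221 symbols; the brightest probe stood for a gene, and 22367 genes that stood well above background in some group, on both of its arrays, were tested with limma 3.58.1 in R 4.3.3 (group plus culture, Benjamini-Hochberg over all genes, threshold 0.05), which was tested on simulated data. Culture numbers pair the samples per the series' design (correlation of deviations 0.268 to 0.724 over 15 pairs of groups). A second rule asked for more than 2-fold in both cultures. The precision is limited by 2 arrays per group and 2 mice per genotype, and the fit treated the arrays of a mouse as independent. All members were named; of each list, the 3 highest and 3 lowest called genes; for each member, the 2 genes of highest Pearson correlation. The members and lists were chosen with earlier results of these data known. Columns of no sample numbered 0.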

Additional observations from a re-analysis of the deposited data

Results flagged for a closer look

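Ripk2, the kinase downstream of NOD receptors, under M1 had less mRNA in KpCKO in both cultures than in WT, by -0.97 ± 0.143 (SE). Under M2 it was higher in both cultures, by only 0.08, and none of the 29 upstream genes, Ripk2 included, was called there. It is listed because the cultures of M1 and M2 moved in opposite directions, and the difference between the 2 was not tested.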

How the results depend on the processing

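The number of members called stayed within 1.5 times its value under most alternatives. With the methods' unpaired test and Benjamini-Hochberg adjustment, members called fell to 4 for the M1 response in WT and 0 for that in KpCKO. They fell to 0 for the M2 response in WT and 0 for KpCKO against WT in M1. Over all genes that test called 1553 higher and 1381 lower for the M1 response in WT. It called 1 higher and 1 lower for the M2 response in WT. For the M1 response in KpCKO and for KpCKO against WT in M1 it called no gene at all. Without adjustment it called 1 member for the M2 response in KpCKO. For the M2 response in WT, where Rel was called, 0 members were called with normexp correction, without the filter on dim probes and without the culture block, and 2 with the groups compared alone. For the M2 response in KpCKO 1 was called when all 12 arrays had to be well above background. For KpCKO against WT in M1, where 3 were called, 1 (Rel) was called with quantile normalization, normexp correction, no filter on dim probes and no culture block. With the groups compared alone 0 were called, in a fit that called no gene at all. In M2, 1 (Nfkbia) was called with trended variances. Leaving out any of the 4 arrays compared lost the Rel call for the M2 response in WT, and left fewer members called for KpCKO against WT in M1. The difference of the M1 response compares the arrays of 4 groups. With any 1 of those arrays left out it ran from -1.66 to -0.91 for Rel and from -0.22 to 2.84 for Nfkbiz. Nfkbiz was called there only without the WT M1 array of culture 1. Nfkbiz under M1 gave 1.33 (adjusted p = 0.0482 by limma) in KpCKO against WT without the WT M1 array of culture 1, and -1.72 (adjusted p = 0.0478) without that of culture 2. The culture block, or pairing, changed no other count by over 1.5 times. The causes were not tested. Signal over background limits Rel, whose probe was dim.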
